A study of Mus musculus with 7 samples.

Results

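Widely used markers of cancer-associated fibroblasts, 10 genes in all, were followed across 7 mouse pancreatic tumors: *Fap*, *Pdgfra*, *Pdgfrb*, *Dcn*, *Lum*, *Postn*, *Acta2*, *Tagln*, *Pdpn* and *Thy1*. They were taken by name and not by a rule on their values, though earlier results of these data were known. All 10 symbols were found in the deposited table of 38026 genes. The tumors were grown under the skin of C57BL/6 mice, bought at 6 weeks of age and housed for 2 weeks beforehand, and were harvested 2 weeks after the inoculation of 1242 KPC cells with no further treatment. This line of pancreatic ductal adenocarcinoma (PDA) cells came from a pancreatic tumor of a genetically engineered mouse. Cells of both groups had received lentivirus with SpCas9 and a guide RNA and had been selected with puromycin. The guide was scrambled in 4 tumors (sgScramble, replicates 1 to 4) and directed against *Krt19* in 3 tumors (sgKRT19, spelled sgKrt19 in the labels, replicates 5, 6 and 8).

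Only the cancer cells carried the guide, so fibroblasts in both groups came from unedited hosts. Whether the sequenced tumors grew from polyclonal cells or single-cell clones, and which *Krt19* guide they carried, is not given in the sources used here. The labels number the tumors without saying that each came from its own mouse, so p-values measure the spread between these samples. The unit throughout is the normalized read count, that is, the reads of a gene divided by the size factor of its library. Errors given with ± are SDs among libraries of the same group. The libraries held 40781199 to 44972100 reads, and 3 reads were worth 2.74 to 3.47 on this scale, far below every value of the 10 genes. *Krt19* had a mean of 23053 ± 4392 (n = 4) in sgScramble tumors and 2012 ± 434 (n = 3) in sgKRT19 tumors, with no overlap.

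Fibroblasts are the cells of connective tissue that build and remodel the collagen matrix, and pancreatic ductal adenocarcinoma is known for a stroma rich in them. Their activated forms in tumors include contractile, smooth muscle actin-rich myofibroblasts and cells that secrete inflammatory mediators. Platelet-derived growth factors (PDGFs), which signal through the receptor chains encoded by *Pdgfra* and *Pdgfrb*, are mitogens of fibroblasts and pericytes. None of the 10 markers is made by fibroblasts alone: *Pdgfrb*, *Acta2* and *Tagln* are shared with pericytes and smooth muscle, *Pdpn* with lymphatic endothelium, and *Thy1* with T cells. In bulk tissue, fewer cells of a type and less RNA per cell cannot be told apart.

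*Acta2*, which encodes the smooth muscle actin of myofibroblasts, was the one marker that passed the test, and it was higher in sgKRT19 tumors, by 1.60-fold on the means. The other 9 markers were not called. The periostin gene *Postn* and the lumican gene *Lum* had lower means in sgKRT19 tumors, at 0.607 and 0.612 of the control means. *Pdgfra* and *Dcn* had group means within 10% of each other, as their ratios of 0.902 and 0.942 show. By sign, 5 markers were higher and 5 lower, with a median log2 fold change of 0.063, against 0.0072 over all genes tested.

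The count of 1 higher and 0 lower of 10 was read against the rest of the transcriptome. limma, a linear model fitted to log2(value + 1) across 21322 genes, called 34.0% of genes at an adjusted p under 0.05, with 17.9% of all genes higher and 16.0% lower in sgKRT19 tumors. These shares depend on the scaling and the tool, at 10.2% higher and 26.9% lower with library size as the only scaling, 17.3% and 16.4% with edgeR, and 19.3% and 18.1% with DESeq2. At an unadjusted p under 0.05 the count of markers was 2, namely *Acta2* and *Postn*. sgScramble and sgKRT19 libraries were without overlap for 1 marker of 10, *Acta2*, and for 41.1% of all genes, 21.7% with sgKRT19 higher and 19.3% with it lower. The share of markers called did not exceed that of genes at large.

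**Figure D1:**
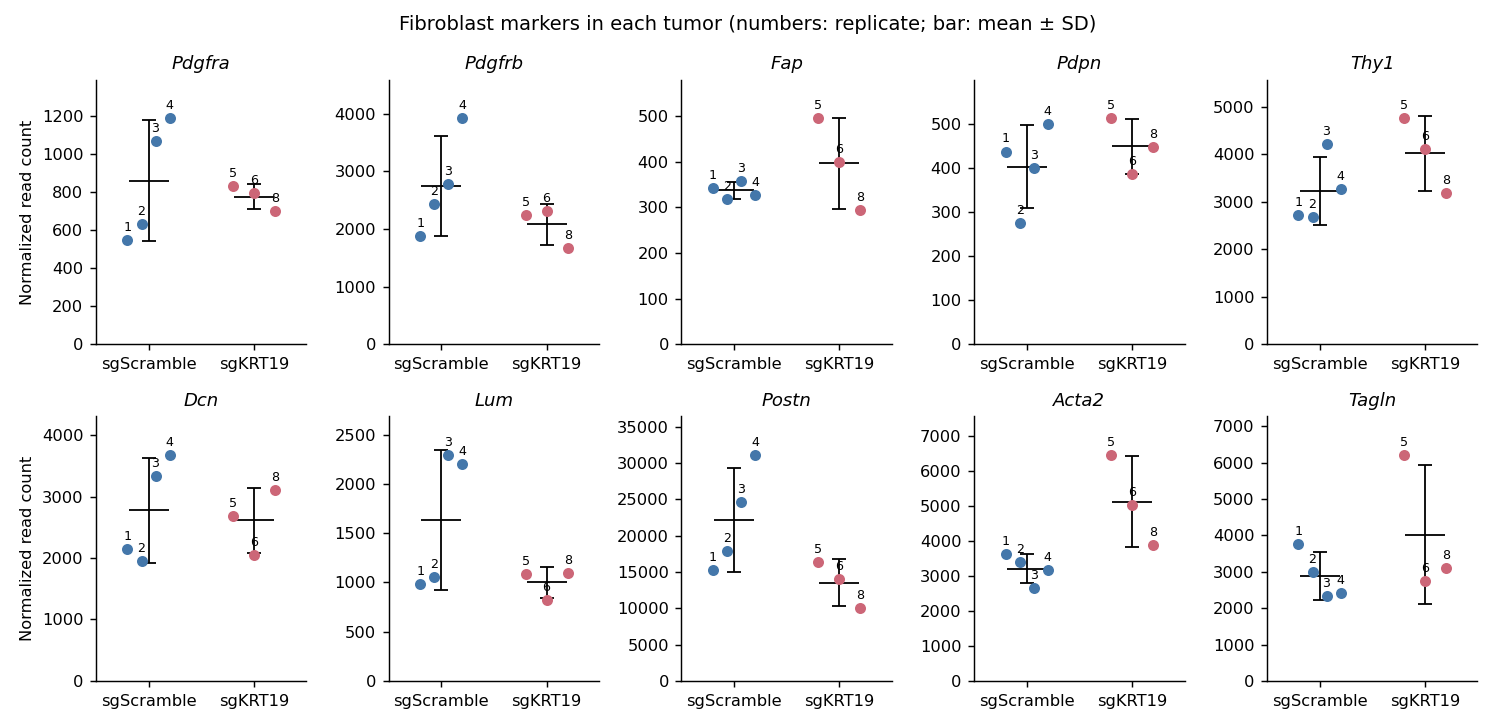
Normalized read count (linear vertical axis from 0) of each of the 10 fibroblast markers in the 4 sgScramble and 3 sgKRT19 tumors. Each point is 1 library with its replicate number, and bars give the mean and SD. *Acta2* is the one gene whose groups do not overlap, with 2651 to 3628 in sgScramble tumors and 3885 to 6462 in sgKRT19 tumors.

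The contractile genes were examined in full, beginning with *Acta2* (ENSMUSG00000035783.9), which is protein-coding and spans 34241090 to 34255590 of chromosome 19 (GRCm38, minus strand). Its values were 3628, 3388, 2651 and 3179 in sgScramble tumors 1 to 4 and 6462, 5039 and 3885 in sgKRT19 tumors 5, 6 and 8. Every sgKRT19 tumor lay above every control, and the lowest of them, sgKRT19 8, was 3885 against the highest control at 3628. The group means were 3212 ± 416 (n = 4) and 5129 ± 1291 (n = 3), and log2 values differed by 0.65 (SE 0.173, 95% interval 0.27 to 1.04, limma adjusted p = 0.0165). The call rested on sgKRT19 5: without that library the log2 fold change was 0.47, with a limma adjusted p of 0.0595. A limma test for a fold above 1.5 did not call the gene.

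Close relatives of *Acta2* encode the other actins, so the possibility of shared reads was checked on the annotated transcripts. None of the 2120 windows of 76 bases, the read length, in *Acta2* transcripts lay within 2 mismatches of *Acta1*, *Actb*, *Actc1*, *Actg1* or *Actg2* transcripts, and the nearest approach was 3 mismatches, to *Actg1*. *Acta1*, the skeletal muscle actin, was at 21.4, 21.7, 934 and 26.9 in sgScramble tumors 1 to 4 and at 11010, 7875 and 10381 in sgKRT19 tumors. Skeletal muscle transcripts therefore moved with the group, with 8 of 8 markers called higher and a summed value of 268 to 2561 in sgScramble against 19070 to 27462 in sgKRT19 tumors. Among the controls, sgScramble 3 had the most *Acta1* and the least *Acta2*, and without that library the *Acta2* log2 fold change was 0.56 (limma adjusted p = 0.0352). The part of muscle tissue in the *Acta2* difference was not tested.

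Both *Acta2* and *Tagln* are textbook targets of serum response factor, which binds CArG boxes. The sequence before the *Acta2* start is shown because this gene carried the one called difference. In the 250 bases before its RefSeq start (GRCm38.p6, minus strand), CArG boxes with 1 mismatch among the 6 central bases were found at 84 to 75 and at 34 to 25 bases before the start. The capitals mark the 10 bases of each box in these stretches, written 5′ to 3′, of chr19:34255438-34255467 and chr19:34255388-34255417. Both stretches also lie inside an exon of a GENCODE transcript.
Acta2 distal box: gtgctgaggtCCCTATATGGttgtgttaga
Acta2 proximal box: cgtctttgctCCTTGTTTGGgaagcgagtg
On either strand, 8.59% of 32851 RefSeq promoters of the same length held a box with at most 1 such mismatch and 1.47% held one with none. These matches describe letters and not factor binding, which was not measured.

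*Tagln* (ENSMUSG00000032085.5), which encodes transgelin, an actin-binding protein of contractile cells, spans 45929619 to 45936058 of chromosome 9 (minus strand). Its values were 3755, 2987, 2334 and 2420 in sgScramble tumors 1 to 4 and 6211, 2734 and 3112 in sgKRT19 tumors 5, 6 and 8. The groups overlapped, since sgKRT19 5 was the highest of all while sgKRT19 6 and sgKRT19 8 lay within the range of the controls. Its log2 fold change was 0.41 (95% interval −0.18 to 1.01, limma adjusted p = 0.251). Without sgKRT19 5 it was 0.05, the lowest of the values with 1 library left out.

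The *Tagln* values carry a further uncertainty. The antisense gene *Gm48529* overlaps 62.4% of the exon bases of *Tagln* and was listed at 3595, 2843, 2270 and 2338 in sgScramble and 5739, 2618 and 2944 in sgKRT19 tumors, nearly the values of *Tagln* itself. The kit named in the methods marks the strand, the use of strand in counting is not given in the sources used here, and without strand the reads of the pair cannot be told apart.

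Wider lists of contractile and mural genes were set beside *Acta2*. Of 13 genes of myofibroblasts and contraction, 1 rose and 2 fell. *Tpm2*, a tropomyosin of the thin filament that skeletal muscle also makes, rose by 1.31 on the log2 scale (SE 0.122, limma adjusted p = 8.02e-05), from 3901 to 4868 in controls to 9678 to 12288. It was the one higher call of this list, and like the skeletal muscle markers given above it was higher in sgKRT19 tumors. In sgScramble 3, the control with the most *Acta1*, *Tpm2* was at 4388, inside the range of the controls. The part of muscle tissue in the *Tpm2* difference was not tested. The actin-binding caldesmon gene *Cald1* fell by 0.68 and *Inhba*, which encodes an activin subunit, fell by 0.62. The call of *Cald1* was lost without sgKRT19 8 and that of *Inhba* without any 1 of sgScramble 1, 2 or 4 or sgKRT19 6 or 8. The myosin light chain gene *Myl9* was not called, with a log2 fold change of 0.10 (95% interval −0.35 to 0.55).

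Smooth muscle markers numbered 7 after the filter, of which 2 rose and 1 fell. The summed value of the list was 2350 to 2617 in sgScramble and 6353 to 8743 in sgKRT19 tumors, and the separation came from *Des*: without it, a sum computed after the values were seen, the ranges overlapped at 1863 to 2344 and 1633 to 2141. The desmin gene *Des*, which is also a gene of skeletal muscle, rose by 5.25 on the log2 scale, *Synpo2* rose by 2.65 and the smoothelin gene *Smtn* fell by 0.74. In sgScramble 3, the control with the most *Acta1*, *Des* was at 753, against 93.8, 59.3 and 94.6 in sgScramble 1, 2 and 4. *Synpo2* was at 57.5 in sgScramble 3, inside the control range of 43.7 to 67.2. The part of skeletal muscle tissue in the *Des* and *Synpo2* differences was not tested. *Myh11*, the smooth muscle myosin that defines the type, was at 53 to 138 in sgScramble and 74 to 145 in sgKRT19 tumors and was not called. Of 8 pericyte markers 3 rose and none fell. They were the proteoglycan gene *Cspg4* (log2 fold change 1.56), the potassium channel gene *Kcnj8* (0.75) and *Rgs5*, a regulator of G-protein signalling (0.62), and the summed value of the list was 4454 to 5532 in sgScramble against 6210 to 7117 in sgKRT19 tumors. *Kcnj8* was not called without sgScramble 2, sgScramble 4 or sgKRT19 5. The part of mural cells in the *Acta2* difference was not tested.

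**Figure D2:**
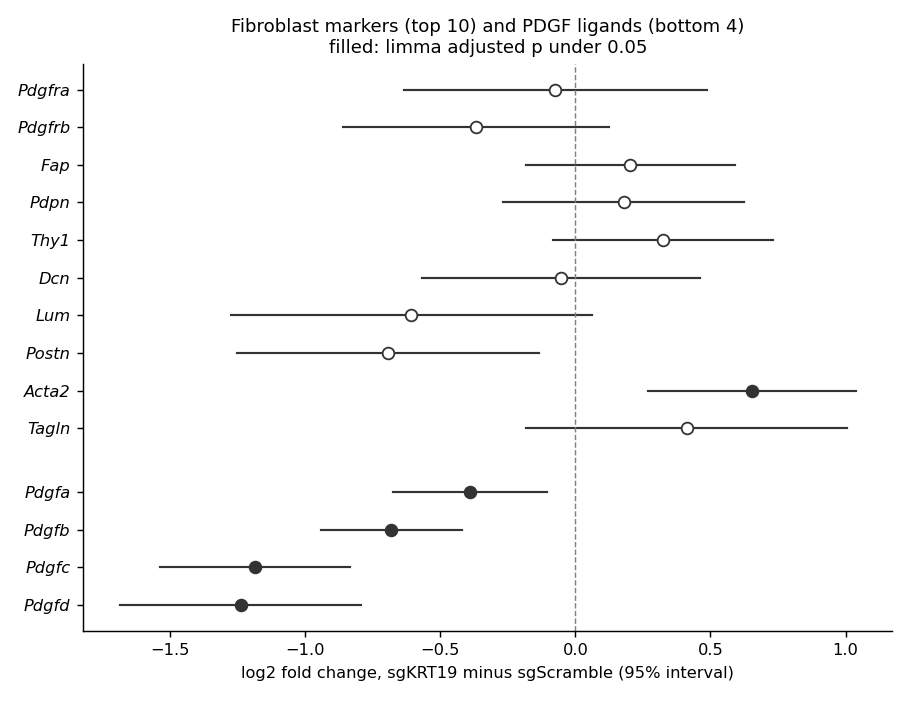
Log2 fold change (sgKRT19 minus sgScramble, horizontal axis) of the 10 fibroblast markers and the 4 PDGF ligand genes, with 95% intervals from limma. Filled points passed an adjusted p under 0.05, namely *Acta2* at 0.65 on the right and the ligands on the left, from −0.39 for *Pdgfa* to −1.24 for *Pdgfd*.

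*Postn* and *Lum*, both matrix genes, had the lowest fold changes among the markers, while the third matrix gene, *Dcn*, was close to 0. *Postn* (ENSMUSG00000027750.16) encodes periostin, a matricellular protein that binds collagen and integrins, and spans 54361109 to 54391037 of chromosome 3 (plus strand). Its values were 15229, 17829, 24687 and 31128 in sgScramble tumors 1 to 4 and 16398, 14067 and 10006 in sgKRT19 tumors 5, 6 and 8. The controls alone spanned 2.04-fold, and sgKRT19 5 lay above the lowest of them. The means were 22218 ± 7155 (n = 4) and 13491 ± 3235 (n = 3), with a log2 fold change of −0.69 (95% interval −1.25 to −0.14) and a limma adjusted p of 0.0557, which missed the threshold. *Postn* stood on the line between called and not called: edgeR's quasi-likelihood test on recovered reads gave an adjusted p of 0.0465 and DESeq2 an adjusted p of 0.0130.

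The sequence before the start of *Postn* is given as that of the most abundant marker per length in control tumors. It covers the 250 bases before the RefSeq start (GRCm38.p6), chr3:54360857-54361106, on the plus strand, and the capitals mark a TATAA element at 26 to 22 bases before the start.
Postn upstream: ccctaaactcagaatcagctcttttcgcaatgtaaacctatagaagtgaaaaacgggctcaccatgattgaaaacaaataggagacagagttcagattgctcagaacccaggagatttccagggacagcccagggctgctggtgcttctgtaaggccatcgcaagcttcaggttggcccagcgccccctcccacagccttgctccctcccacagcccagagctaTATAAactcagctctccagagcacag
These 5 letters occurred on either strand in 22.8% of the 32851 promoters. No CArG box, searched with the same tolerance, was found in this window.

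*Lum* (ENSMUSG00000036446.5, plus strand of chromosome 10, 97565128 to 97572703) and *Dcn* (ENSMUSG00000019929.16, plus strand of chromosome 10, 97479609 to 97518143) encode lumican and decorin, small leucine-rich proteoglycans that bind collagen fibrils. *Lum* values were 982, 1053, 2297 and 2207 in sgScramble tumors 1 to 4 and 1083, 823 and 1096 in sgKRT19 tumors 5, 6 and 8. The controls formed a low pair and a high pair, and the sgKRT19 tumors lay at the level of the low pair. The log2 fold change was −0.61 (95% interval −1.28 to 0.06, limma adjusted p = 0.139), while DESeq2 called it (adjusted p = 0.0437).

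*Dcn* was at 2147, 1946, 3331 and 3679 in sgScramble tumors 1 to 4 and at 2683, 2056 and 3109 in sgKRT19 tumors 5, 6 and 8. Here too sgScramble 3 and sgScramble 4 were the high controls, but the sgKRT19 tumors were spread through the same range. Its log2 fold change was −0.05 (95% interval −0.57 to 0.46, limma adjusted p = 0.876), and its sign turned when sgScramble 3, sgScramble 4 or sgKRT19 6 was left out.

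These neighbouring genes of chromosome 10 were set against each other within each tumor. The ratio of *Lum* to *Dcn* per kilobase of exon was 1.09, 1.29, 1.64 and 1.43 in sgScramble tumors 1 to 4 and 0.963, 0.955 and 0.841 in sgKRT19 tumors 5, 6 and 8. Every control had a higher ratio than every sgKRT19 tumor. Whether a ratio lies above or below 1 depends on the length used, the merged exons of all annotated transcripts. That length was 2448 bases for *Lum*, with 1 transcript, and 5838 for *Dcn*, with 5. The log2 ratio differed by −0.56, and an exact two-sided permutation test gave p = 0.0571, the smallest that 35 splits of these libraries allow, with 0.229 after adjustment over the 4 ratios compared. A ratio within a tumor shows unequal change of the pair and not which gene changed.

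**Figure D3:**
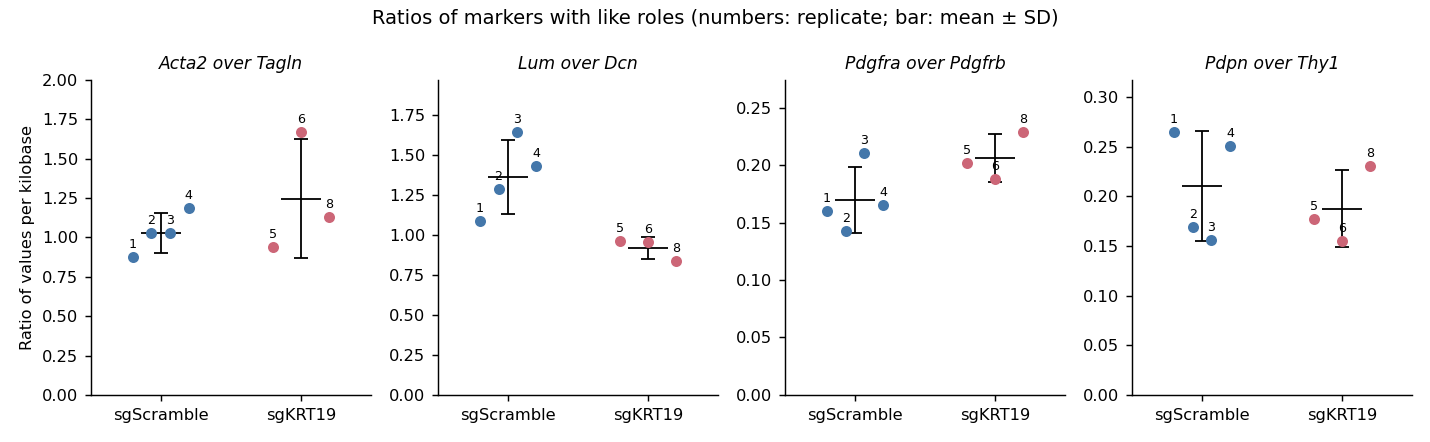
Ratio of normalized read count per kilobase of exon (linear vertical axis from 0) for 4 pairs of markers with like roles, in each tumor. Points are libraries with their replicate numbers and bars give the mean and SD. *Lum* over *Dcn* is the one pair without overlap, at 1.09 to 1.64 in sgScramble and 0.841 to 0.963 in sgKRT19 tumors.

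The wider matrix list of 15 pan-fibroblast genes had 5 lower and none higher. *Fn1*, which encodes fibronectin, fell by 1.28 on the log2 scale (SE 0.252, limma adjusted p = 0.00424), with 62680, 95237, 60188 and 111934 in sgScramble tumors 1 to 4 and 41313, 32600 and 26355 in sgKRT19 tumors. The mesenchymal transcription factor genes *Twist1* and *Prrx1* fell by 1.06 and 0.73, and the collagen genes *Col6a1* and *Col5a1* fell by 0.96 and 0.73. Without sgKRT19 5 or sgKRT19 8 neither collagen gene was called, and *Col5a1* also lost its call without sgScramble 2, sgScramble 3 or sgKRT19 6. The major fibrillar collagens were not called: log2 fold changes were −0.16 for *Col1a1* (95% interval −0.75 to 0.44), −0.10 for *Col1a2* (−0.68 to 0.47) and −0.40 for *Col3a1* (−0.94 to 0.15). The median log2 fold change of the list was −0.30. Which cells made these transcripts, fibroblasts or the edited cancer cells among them, was not measured.

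Neither PDGF receptor gene was called. *Pdgfra* (ENSMUSG00000029231.15, plus strand of chromosome 5, 75152292 to 75198215) encodes the receptor chain typical of fibroblasts and was at 548, 631, 1070 and 1188 in sgScramble tumors 1 to 4 and at 830, 795 and 700 in sgKRT19 tumors 5, 6 and 8. The sgKRT19 tumors lay between the low and the high pair of controls. The log2 fold change was −0.07 (95% interval −0.64 to 0.49, limma adjusted p = 0.838), and its sign turned without sgScramble 3 or sgScramble 4. Opposite-strand genes shared 4.02% of its read-length windows, and they were listed at means under 1.

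*Pdgfrb* (ENSMUSG00000024620.11, plus strand of chromosome 18, 61045150 to 61085061), which is also the receptor of pericytes, was at 1874, 2425, 2780 and 3920 in sgScramble tumors 1 to 4 and at 2247, 2311 and 1675 in sgKRT19 tumors 5, 6 and 8. The groups overlapped, with sgScramble 4 the highest and sgKRT19 8 the lowest of the 7 tumors. Group means on the log2 scale differed by −0.37 (95% interval −0.86 to 0.13, limma adjusted p = 0.219). The ratio of *Pdgfra* to *Pdgfrb* per kilobase was 0.170 ± 0.0290 (n = 4) in sgScramble and 0.206 ± 0.0206 (n = 3) in sgKRT19 tumors, and the exact permutation test gave p = 0.171 (0.343 adjusted).

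Of the PDGF ligand genes, 4 of 4 were called lower. *Pdgfc* was at 2385, 2587, 2444 and 2437 in sgScramble tumors 1 to 4 and at 1452, 992 and 878 in sgKRT19 tumors 5, 6 and 8. The controls were within a narrow range and every sgKRT19 tumor lay far below it, and the difference was −1.19 on the log2 scale (SE 0.158, limma adjusted p = 0.000518). *Pdgfd* fell by 1.24 (limma adjusted p = 0.00148) and *Pdgfb*, the ligand of vessel-associated mural cells, fell by 0.68 (limma adjusted p = 0.00203).

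*Pdgfa*, the main ligand of the alpha receptor chain, fell by 0.39 (95% interval −0.68 to −0.10, limma adjusted p = 0.0401). This call was lost in 9 of 16 other settings, among them each of those that left out sgScramble 1, 2, 3 or 4 or sgKRT19 6 or 8, and the antisense gene *6330403L08Rik* overlaps 26.1% of its exon bases. The calls of *Pdgfb*, *Pdgfc* and *Pdgfd* held in 15, 16 and 15 of the 16. The summed value of the ligands was 5636 to 6274 in sgScramble and 2880 to 3877 in sgKRT19 tumors. Which cells made them was not measured, and the difference in response between ligands and receptors was not tested.

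Surface proteins of fibroblasts were not called. *Fap* (ENSMUSG00000000392.17, minus strand of chromosome 2, 62500943 to 62574075), the gene of fibroblast activation protein, a membrane serine protease, was at 344, 319, 359 and 327 in sgScramble tumors 1 to 4 and at 496, 399 and 295 in sgKRT19 tumors 5, 6 and 8. The controls were tight, with a coefficient of variation of 5.24%, the lowest of the 10 markers, and the sgKRT19 tumors straddled them at 25.3%. The log2 fold change was 0.20 (95% interval −0.18 to 0.59, limma adjusted p = 0.386).

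*Thy1* (ENSMUSG00000032011.5, plus strand of chromosome 9, 44043384 to 44048579), a glycophosphatidylinositol-anchored surface glycoprotein, was at 2721, 2685, 4214 and 3279 in sgScramble tumors 1 to 4 and at 4763, 4103 and 3196 in sgKRT19 tumors 5, 6 and 8. The ranges overlapped, with sgScramble 3 among the higher sgKRT19 tumors and sgKRT19 8 among the controls. Its log2 fold change was 0.32 (95% interval −0.08 to 0.73, limma adjusted p = 0.190). *Thy1* is also a surface antigen of mouse T cells, and all 8 T cell markers tested were higher in sgKRT19 tumors, with a summed value of 490 to 1056 in sgScramble and 3073 to 5714 in sgKRT19 tumors. The part of T cells in the *Thy1* values was not tested.

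*Pdpn* (ENSMUSG00000028583.14, minus strand of chromosome 4, 143267431 to 143299564) encodes podoplanin, a mucin-like glycoprotein. A second identifier of the same name, ENSMUSG00000096951.7, carried identical values in every library and was counted once. The gene was at 437, 276, 398 and 499 in sgScramble tumors 1 to 4 and at 512, 386 and 446 in sgKRT19 tumors 5, 6 and 8. The sgKRT19 tumors lay within or just above the control range, and the log2 fold change was 0.18 (95% interval −0.27 to 0.62, limma adjusted p = 0.509). Of the lymphatic endothelium markers, 3 were tested and 1 was higher, *Ccl21a*. Its mean was 28.6 in sgKRT19 tumors, and its sgScramble values of 2.79 to 10.0 reached down to the worth of 3 reads. *Lyve1* was at 15 to 65 in sgScramble and 20 to 51 in sgKRT19 tumors. *Prox1*, the defining factor, was too low to be tested, at 0.93 to 3.65 and 4.62 to 10.0.

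The levels of the markers were ordered per length, as RPKM, reads scaled to kilobases of exon and to the depth of the library. The length merged the exons of all annotated transcripts of a gene, used or not, and the order depends on it. In sgScramble tumors *Postn* was first at 64.4 ± 23.1 (n = 4), followed by *Acta2* at 36.5 ± 4.24, *Tagln* at 36.0 ± 7.0 and *Thy1* at 27.0 ± 6.35. *Lum* (16.9), *Pdgfrb* (12.7), *Dcn* (12.0), *Pdpn* (5.55), *Pdgfra* (2.16) and *Fap* (1.49) came next. Only *Postn*, *Dcn* and *Pdpn* were clear of the gene after them, with their lowest library above the highest library of that gene. The ranges of the other neighbours in the order overlapped, and genes were not compared within each library.

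In sgKRT19 tumors the order was led by *Acta2* at 49.8 ± 9.24 RPKM (n = 3) and *Tagln* at 42.5 ± 16.5, with *Postn* at 33.1 ± 6.35. The ranges of these 3 overlapped those of their neighbours in the order. *Thy1* at 28.7, *Pdgfrb* at 8.15 and *Pdpn* at 5.28 were clear of the gene after them by the same rule. *Pdgfra* (1.66) and *Fap* (1.49) were again the last.

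Most markers varied together among tumors of the same group. After the group mean was removed, *Postn* had a Pearson r of 0.889 with the mean of the other 9 markers over the 7 libraries, *Pdgfra* 0.799 and *Thy1* 0.761, and the lowest of the 8 non-contractile markers was *Fap* at 0.509. The contractile genes had values near 0, at 0.067 for *Acta2* and −0.063 for *Tagln*. These are descriptions over 7 libraries with 2 group means removed, and all genes of a library share its scaling.

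The highest and lowest libraries of each marker were also noted. Among controls, sgScramble 4 was the highest for 5 markers (*Pdgfra*, *Pdgfrb*, *Pdpn*, *Dcn* and *Postn*) and sgScramble 3 for *Fap*, *Thy1* and *Lum*. The highest *Acta2* and *Tagln* of the controls were in sgScramble 1, which had the lowest *Pdgfra*, *Pdgfrb*, *Lum* and *Postn*. Among sgKRT19 tumors, sgKRT19 5 was the highest for 7 of 10 markers, *Acta2* and *Tagln* among them beside *Pdgfra*, *Fap*, *Pdpn*, *Thy1* and *Postn*. The lowest for 6 was sgKRT19 8, again with *Acta2* among them. Against their group means, the contractile genes ran opposite to most of the others in sgScramble 1, 2 and 3, by little in sgScramble 2. *Tagln* also did so in sgScramble 4 and in sgKRT19 6, where most of the others lay only a little above their means. *Acta2* did not run opposite to most of the others in sgKRT19 5 and sgKRT19 8.

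**Figure D4:**
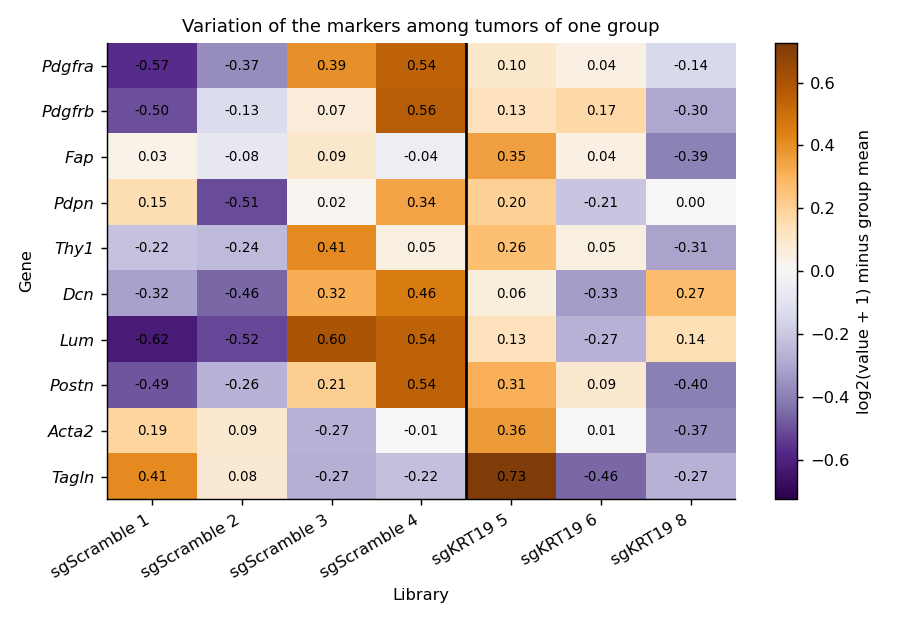
Deviation of log2(value + 1) from the mean of its group (color scale and printed values) for each marker and library, with a line between the groups. In sgScramble tumors 1 and 2 *Lum* is at −0.62 and −0.52 and in 3 and 4 at 0.60 and 0.54. *Acta2* and *Tagln* run the other way in sgScramble 1, 2 and 3, by little in sgScramble 2.

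Genes outside the markers with the most similar variation were sought among 12610 genes with a mean value of at least 100. Genes with only a clone or model name were left out of this search, among them *Gm48529*, the antisense gene of *Tagln*. *Colec12*, which encodes a scavenger receptor collectin, was the most like the mean of the 10 markers with the group means removed (r = 0.995 over 7 libraries), and *Mcam*, which encodes a cell adhesion molecule of pericytes and endothelium, was also among the 10 most alike (r = 0.979). The others of these 10 were *Zfp61*, *S1pr2*, *Gpx3*, *Pld3*, *P3h1*, *Cxxc5*, *Apcdd1* and *Csgalnact1*, the last at 0.966. Over the 7 libraries, without the centring, the nearest single gene was *Dnm3os* for *Pdgfra* (0.983), *Slit3* for *Pdgfrb* (0.990), *Haus1* for *Fap* (0.972), *Lpl* for *Pdpn* (0.933) and *Sdha* for *Thy1* (0.980). It was *Pde8a* for *Dcn* (0.974), *Gpc3* for *Lum* (0.972), *Sertad4* for *Postn* (0.992), *Rbpms* for *Acta2* (0.985) and *Ergic2* for *Tagln* (0.976). With 7 libraries and a search of this size, high values of r arise readily, and they are given as descriptions.

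Lists for other fibroblast states completed the account. Of 14 inflammatory fibroblast genes, 1 rose and 1 fell: *Ly6c1*, which is also expressed by endothelial and myeloid cells, rose by 1.76 on the log2 scale, and the cytokine gene *Lif* fell by 0.47. The chemokine gene *Cxcl12*, characteristic of fibroblasts, was at 652, 563, 899 and 965 in sgScramble tumors 1 to 4 and at 883, 823 and 1527 in sgKRT19 tumors 5, 6 and 8, and was not called (log2 fold change 0.46, 95% interval −0.08 to 1.01). *Il6* was at 12.8 to 20.4 in sgScramble and 11 to 39.9 in sgKRT19 tumors.

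Of 6 genes ascribed to antigen-presenting fibroblasts, 4 rose and none fell. They were the class II genes *H2-Ab1* (log2 fold change 1.12), *H2-Aa* (0.98) and *H2-Eb1* (0.84) and the invariant chain gene *Cd74* (16507 to 23160 in sgScramble, 38729 to 42246 in sgKRT19 tumors), all of which are strongly expressed by myeloid cells and B cells, so that their source in bulk tissue cannot be told apart. Of 8 TGF-beta response genes, 1 rose (*Tgfbi*, 0.56) and 3 fell (*Skil*, −0.75, *Ccn1*, −0.53, and *Smad7*, −0.47). Like *Lif*, called in 9 of the 16 other settings, several of these calls were not stable: *Tgfbi* was called in 11, *Ccn1* in 7 and *Smad7* in 13, and each was lost when any of several single libraries was left out. Of other cell types, 4 of 6 epithelial markers, 3 of 6 blood endothelial markers and 1 of 6 macrophage markers were higher. Lower were 1 of 6 macrophage markers (*Mrc1*) and 1 of 4 skin keratinocyte markers (*Lor*), and none of the 4 adipocyte, 2 Schwann cell and 1 melanocyte markers tested was called. Of these calls, *Mrc1* held in 10 of the 16 other settings, and *Lor* and the endothelial *Pecam1* in 11 each. Each was lost when any of several single libraries was left out. *Lor* was low, at 15.8 to 33.8 in sgScramble and 4.0 to 13.9 in sgKRT19 tumors.

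**Figure D5:**
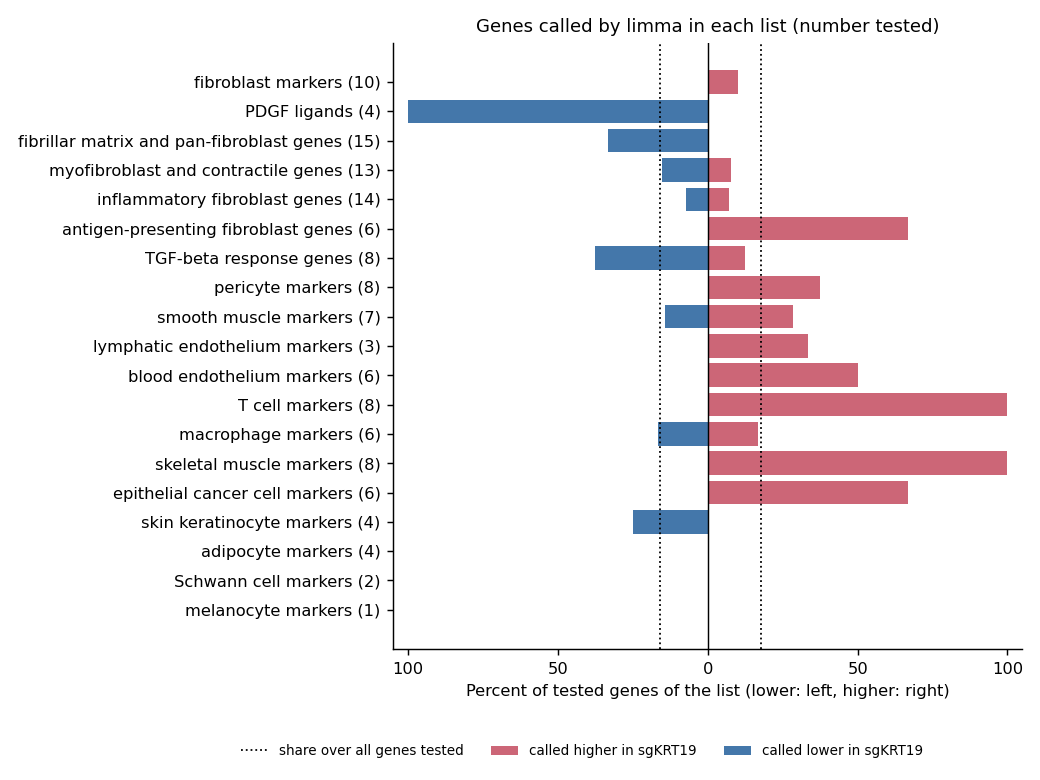
Percent of the tested genes of each list that limma called lower (left) or higher (right) in sgKRT19 tumors, with the number tested in parentheses and dotted lines at the share over all genes (16.0% lower, 17.9% higher). The 10 fibroblast markers have 1 call, higher, and the 4 PDGF ligands have 4, all lower.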

How the data were processed

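RNA from 7 subcutaneous tumors was sequenced with single reads of 76 bases. The methods name a stranded total RNA kit with 12 PCR cycles and the labels call the molecule polyA RNA. The authors deposited 1 table of a normalized signal, reads per gene divided by a size factor for each library. The aligner and counting program are not given in the sources used here, and the submitters' processing notes name mm10. All values were whole multiples of 1 read within 0.01 read, so that 100% of values gave whole reads in each library, with 40781199 to 44972100 reads. Floors in reads cover counting error only.

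Genes reaching a value of 10 in 3 or more libraries (21322, all 10 markers among them) were tested with limma 3.58.1 (lmFit, eBayes with trend) in R 4.3.3 on log2(value + 1), with the group as the one term, Benjamini-Hochberg adjustment over all genes tested and a threshold of 0.05. Fold changes on this scale understate changes of low genes. Alternatives were pseudocounts of 0.5 and 10, no filter, scaling by library size or TMM, edgeR 4.0.16 and DESeq2 1.42.0 on the recovered reads, limma without a trend, a limma test for a fold above 1.5, and each library left out, 16 in all. Ratios were tested by exact two-sided permutation (SciPy 1.17.1). The fits were tested on simulated data.

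Positions and exon lengths came from GENCODE M21 (GRCm38), in which 37167 of 38026 identifiers (97.74%) had the same version. Upstream sequences came from RefSeq (GRCm38.p6), which held 4 of the 10 markers in the table used. The 10 markers and the 18 other gene lists were chosen with earlier results of these data known. Named genes are the markers, *Krt19*, the genes most like the markers, and, from each list, the called genes with the highest and lowest fold change and the defining markers; other called or abundant genes of a list were named after their values were seen. *Tyrp1*, a melanocyte marker, was not analysed here, and 1 gene of the Schwann cell list and the alleles of the mouse of origin are not reported here. The labels give no batch or date, so a batch that followed the groups cannot be told apart from them.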

Additional observations from a re-analysis of the deposited data

Results flagged for a closer look

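Of 36 results examined in the 4 sgScramble tumors for a library far from the rest, 2 had one, and chance gives about 1 in 20. Neither was a fibroblast marker. For the mean log2 level of the skeletal muscle markers, sgScramble 3 was the highest, with a gap of 0.904 of the range of the 4 values, above the limit of Dixon's test at 95%. For the Schwann cell markers, sgScramble 2 was the highest with a gap of 0.841, and the summed value of the markers was 63.2 to 124 in sgScramble and 70.5 to 88.0 in sgKRT19 tumors. The part of muscle and nerve tissue in the marker values of these libraries was not tested.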

How the results depend on the processing

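No paired analysis was made, because the labels pair no tumors and the groups share no replicate number. A figure legend of the study speaks of paired control and edited cells and does not say which tumors belong together. *Acta2* was called in 14 of 16 other settings, with log2 fold changes of 0.44 to 0.84; the exceptions were the test for a fold above 1.5 (0.65, limma adjusted p = 1) and the fit without sgKRT19 5 (0.47). *Postn* became called with library size as the only scaling (−0.91), edgeR (−0.74), DESeq2 (−0.73) and without sgScramble 1 (−0.86), and *Lum* with DESeq2 (−0.72) and without sgScramble 1 (−0.82). Lower markers then numbered 1, 1, 2 and 2, against 0. Library size alone moved the median log2 fold change of all genes from 0.0072 to −0.21, turned *Fap* to −0.013 and *Pdpn* to −0.037, and called 2177 genes higher and 5727 lower, or 10.2% and 26.9%, in place of 3820 and 3420. The test for a fold above 1.5 called 1336 genes, 728 higher and 608 lower, no marker (0), and 21 higher and 1 lower gene of the other lists, against 37 and 18. The cause of these shifts was not tested.

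With 1 library left out, the markers called ranged from 0 to 1 higher and from 0 to 2 lower, all genes called from 4861 to 7714 (higher 2481 to 4103, lower 2232 to 3611), genes of the other lists from 34 to 40 higher and 11 to 16 lower, and the median of the markers from −0.094 to 0.15. The fewest lower genes came without sgScramble 2 and the fewest higher genes without sgKRT19 5. Log2 fold changes ranged from −0.27 to 0.11 for *Pdgfra*, −0.53 to −0.18 for *Pdgfrb*, 0.026 to 0.40 for *Fap*, 0.0083 to 0.29 for *Pdpn*, 0.19 to 0.48 for *Thy1*, −0.21 to 0.11 for *Dcn*, −0.82 to −0.41 for *Lum*, −0.86 to −0.49 for *Postn*, 0.47 to 0.84 for *Acta2* and 0.05 to 0.64 for *Tagln*. *Pdgfra* turned sign without sgScramble 3 (0.056) or sgScramble 4 (0.11) and *Dcn* without sgScramble 3 (0.052), sgScramble 4 (0.10) or sgKRT19 6 (0.11). The lowest value of any marker was 276, against 3.47 at most for 3 reads.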
